A study of Rattus norvegicus with 29 samples.

Results

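Gene expression in the duodenum after Roux-en-Y gastric bypass (RYGB) was compared with that after its sham operation, across all genes of the array. The comparison used the 11 arrays whose titles name these operations, 6 of RYGB and 5 of sham, out of 29 arrays in the series. All rats were male wild-type Long-Evans animals of 8 to 10 weeks, kept free of specified pathogens, and each array held the RNA of 1 rat. Solid food was replaced by a liquid diet, Osmolite, on the day before surgery, and all animals were opened by a midline incision under isoflurane. The labels describe a sham in which blunt forceps pressed on the stomach along the sleeve line, and do not say whether the RYGB shams had the same. The construction of the bypass, the time between surgery and sampling, and the later diet have no entry in the labels used here. The RYGB arrays have no pair-fed control, so bypass and food intake cannot be told apart. The other 18 arrays, 6 each of vertical sleeve gastrectomy (VSG), its sham and a pair-fed sham, entered the fit for the spread between animals.

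In a Roux-en-Y bypass food passes from a small stomach pouch into the jejunum, and the duodenum keeps bile and pancreatic juice but loses contact with the meal. The duodenal epithelium takes up iron, calcium and sugars, and it packs dietary fat into lipid droplets and chylomicrons. Several of its genes are set by what reaches the lumen or the enterocyte: fatty acids act through PPAR receptors, sterols through the SREBP and INSIG proteins, and low iron or oxygen through HIF-2 alpha.

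Of 14557 genes tested, 385 (2.64%) passed limma's test at an adjusted p under 0.05 and are called changed below. They split into 184 higher after RYGB (1.26%) and 201 lower (1.38%). At least a 2-fold change was found for 34 higher and 52 lower genes, and at least a 4-fold change for 3 higher and 8 lower genes. The median log2 fold change over all genes was 0.003. Before adjustment, 2056 of the 14557 genes had a limma p under 0.05. In bulk tissue, fewer cells of a type and less RNA per cell cannot be told apart. For 113 of the 385 genes (0.776% of all genes), the call held with each of the 11 arrays left out in turn, with the RYGB and sham arrays fitted alone, with the exocrine pancreas level as a covariate, and without the 3 RYGB arrays richest in pancreas. Their log2 fold change also stayed within 1.5 times in these 14 refits. These 113 genes, 57 higher and 56 lower, are termed firm calls, and named genes are firm calls unless stated otherwise. In 103 of the 113 the RYGB and sham arrays did not overlap, as in 405 of all genes (2.78%). These genes were chosen on the same values, so the share is a description.

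**Figure D1:**
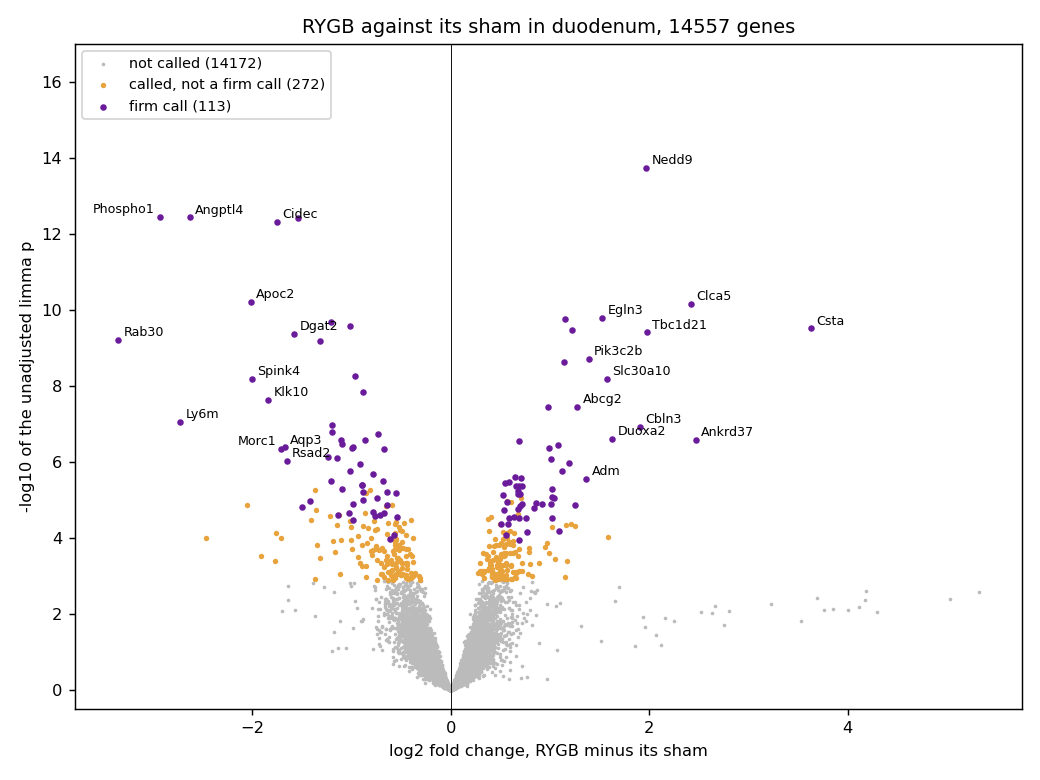
Each point is a gene, with its log2 fold change (RYGB minus its sham) on the horizontal axis and the -log10 of the unadjusted limma p on the vertical axis. Csta lies farthest to the right among the called genes at 3.63 and Rab30 farthest to the left at -3.35, and the grey points at the far right with small -log10 p include the acinar markers of the pancreas.

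The label of duodenum was checked by marker genes. The mean log2 level of 12 enterocyte markers was 10.42 to 10.76 in RYGB arrays and 10.34 to 10.70 in sham arrays, and 1 of the 12, the peptidase Anpep, was called (0.35 ± 0.08, SE; adjusted p = 0.126 with the pancreas covariate, and up to 0.0588 when either RYGB replicate 1 or sham replicate 4 was left out). The 5 measured markers of duodenal position averaged 8.01 to 8.16 in RYGB arrays and 7.68 to 7.94 in sham arrays. Limma called 1 of them, Cybrd1 (1.17), which is not a firm call and is described with the metal transport genes. The other 4, Gata4 (0.34), Cdx2 (0.22), Cdx1 (0.0007) and Onecut2 (-0.16), were not called. RYGB replicate 5 stood apart in markers of other gut regions. Fabp6, the bile acid binding protein of the ileum, was 10.77 in it, against 4.18 to 6.24 in the other RYGB arrays and 4.6 to 5.80 in sham. Tff2, a trefoil factor of Brunner glands and stomach, was 9.80 in it, against 3.66 to 6.17 in the other RYGB arrays and 3.39 to 4.54 in sham. Pgc, a pepsinogen, was 6.36 in it, against 3.64 to 4.53 in the other RYGB arrays and 3.88 to 4.36 in sham. Its mean over 7 ileum and colon markers was 5.34, with 4.28 to 4.49 in the other RYGB arrays and 4.36 to 4.87 in sham, and Hoxb13, Hoxd10 and Hoxd13 lay under the array median in all 11 arrays. Its mean over 8 Brunner gland and stomach markers was 4.55, with 3.46 to 3.84 in the other RYGB arrays and 3.41 to 3.87 in sham, and Gkn1, Gkn2 and Cblif lay under the array median in all 11 arrays. Limma called 0 of the 8 (2 at an unadjusted p under 0.05). Of the 7 ileum and colon markers it called 1, Guca2a, the guanylin precursor (0.42), which lost its call with any single array left out other than sham replicate 3 (adjusted p up to 0.124). Without RYGB replicate 5 limma called 447 genes, 210 higher and 237 lower, and 349 of them were among the 385. Acinar markers of the neighbouring pancreas moved with the groups. Their mean over 15 genes was 7.06 ± 2.28 (SD, n = 6) in RYGB and 3.56 ± 1.32 (SD, n = 5) in sham, a difference of 3.49 (two-sided exact permutation p = 0.0303). That p was above 0.05, between 0.0556 and 0.0667, when RYGB replicate 1, 3, 4 or 6 was left out, and likewise for sham replicate 2 or 5. All 15 were above 0 with a median log2 fold change of 3.69, and limma called 0 of them (15 had an unadjusted p under 0.05). RYGB replicate 5 stood at 3.04 and sham replicate 1 at 5.88, so the groups overlapped. With this mean as covariate, 193 of the 385 calls held, and the median log2 fold change of the genes called higher was 0.605 instead of 0.592 (-0.667 instead of -0.685 for those called lower). RYGB replicate 5, low in pancreas markers but high in Fabp6, Tff2 and Pgc, showed a median 0.87 of the group difference over the firm calls, while the other RYGB arrays showed 0.88 to 1.24 and the sham arrays -0.09 to 0.07. The last values describe genes chosen on these same arrays.

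**Figure D2:**
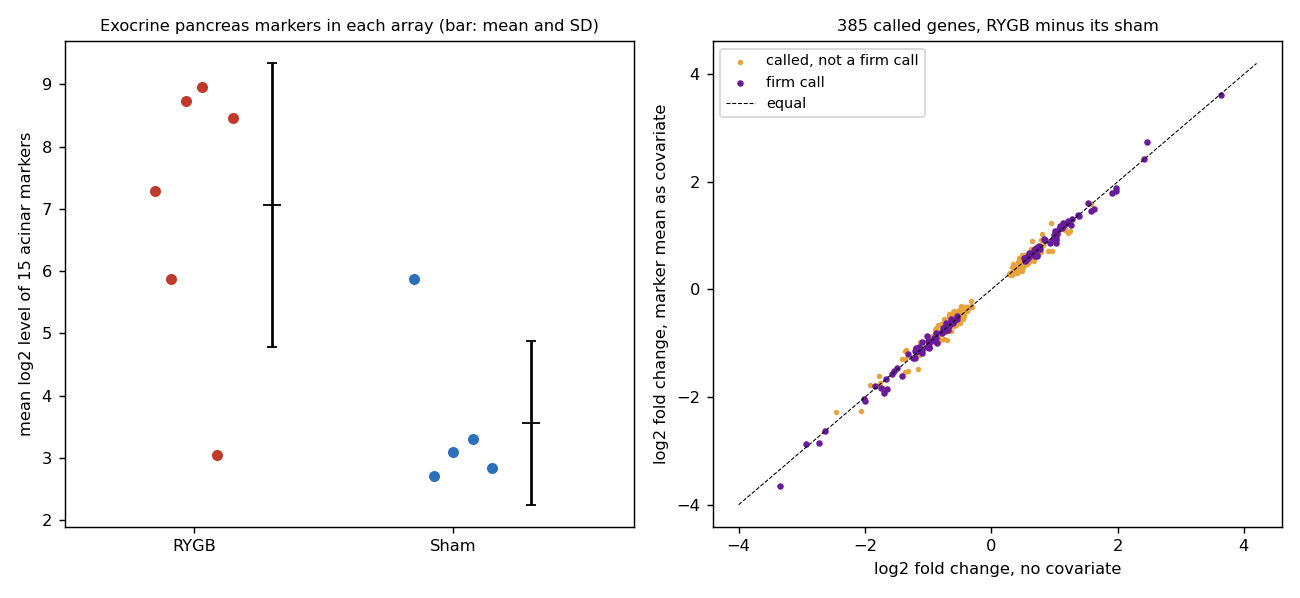
The left panel plots the mean log2 level of 15 exocrine pancreas markers in each array, RYGB left of sham, with mean and SD. The right panel sets the log2 fold change of the 385 called genes with this mean as covariate against that without it, and the points follow the line of equal values.

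The largest rise was that of Csta, cystatin A, an inhibitor of cysteine proteases. Its log2 level ranged from 4.11 to 7.5 in RYGB arrays (median 5.25), against 1.87, 1.26, 2.75, 1.63 and 1.51 in sham arrays. All RYGB arrays were above all sham arrays, and the sham values lay under the array medians of 2.85 to 2.91, so the size is inexact. The log2 fold change was 3.63 ± 0.39 (12.4-fold, adjusted p = 3.73e-07). Of 92 measured serpins, cystatins, Spink and Wfdc proteins, 1 rose and 2 fell, 2 of them firm, with a median of -0.01. That is 3.26% called, against 2.64% of all genes. Nedd9, a Cas-family scaffold of adhesion signalling, had the smallest p among the rises. It lay between 8.04 and 8.84 after RYGB (median 8.52), against 6.97, 6.40, 6.17, 6.62 and 6.32 in sham, 3.92-fold higher (1.97 ± 0.14, adjusted p = 2.62e-10). The groups did not overlap.

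Clca5, of the chloride channel accessory family, was 5.35-fold higher (2.42 ± 0.24, adjusted p = 1.46e-07) and Tbc1d21, of the TBC family of Rab regulators, 3.93-fold higher (1.98 ± 0.21, adjusted p = 4.05e-07). Both were near or under the array medians in sham, at 1.74 to 2.54 and at 2.66 to 2.97. Cbln3, a secreted protein of the cerebellin family, rose 3.75-fold (1.91 ± 0.27). Duoxa2, the maturation factor of the peroxide-producing oxidase Duox2, rose 3.09-fold (1.63 ± 0.24), with sham arrays at 1.85 to 2.44, under the array medians. Pik3c2b, a class II phosphoinositide 3-kinase, rose 2.62-fold (1.39 ± 0.16, adjusted p = 1.59e-06). Among 38 genes of the mTOR, AMPK and insulin pathways 3 rose and 0 fell (7.89% called, against 2.64% of all genes), with a median of 0.02, and Pik3c2b was the 1 firm call of the 3. Further rises of about 2-fold were those of Fmo4, a flavin monooxygenase (1.14 ± 0.13), Sdc1, the proteoglycan syndecan 1 (1.08 ± 0.16), Efna1, a membrane-bound ephrin (1.02 ± 0.16), and Qdpr, which regenerates tetrahydrobiopterin (0.98 ± 0.13). Ace, the angiotensin-converting enzyme of the brush border, rose 2.03-fold (1.02 ± 0.21, adjusted p = 0.0037), with its lowest RYGB array at 10.34 and its highest sham array at 10.42. The chemokine Cxcl16 rose 1.90-fold (0.92 ± 0.18), also with overlap, and the gut ubiquitin ligase Rnf186 1.99-fold (0.99 ± 0.15). Zmynd15 (1.25), Mfsd4b2 (1.19), Spmip3 (1.12), Cnmd (1.09), Ccdc92 (1.02), Reps2 (1.02) and Zfp608 (0.86) complete the 30 largest rises with the genes below.

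**Figure D3:**
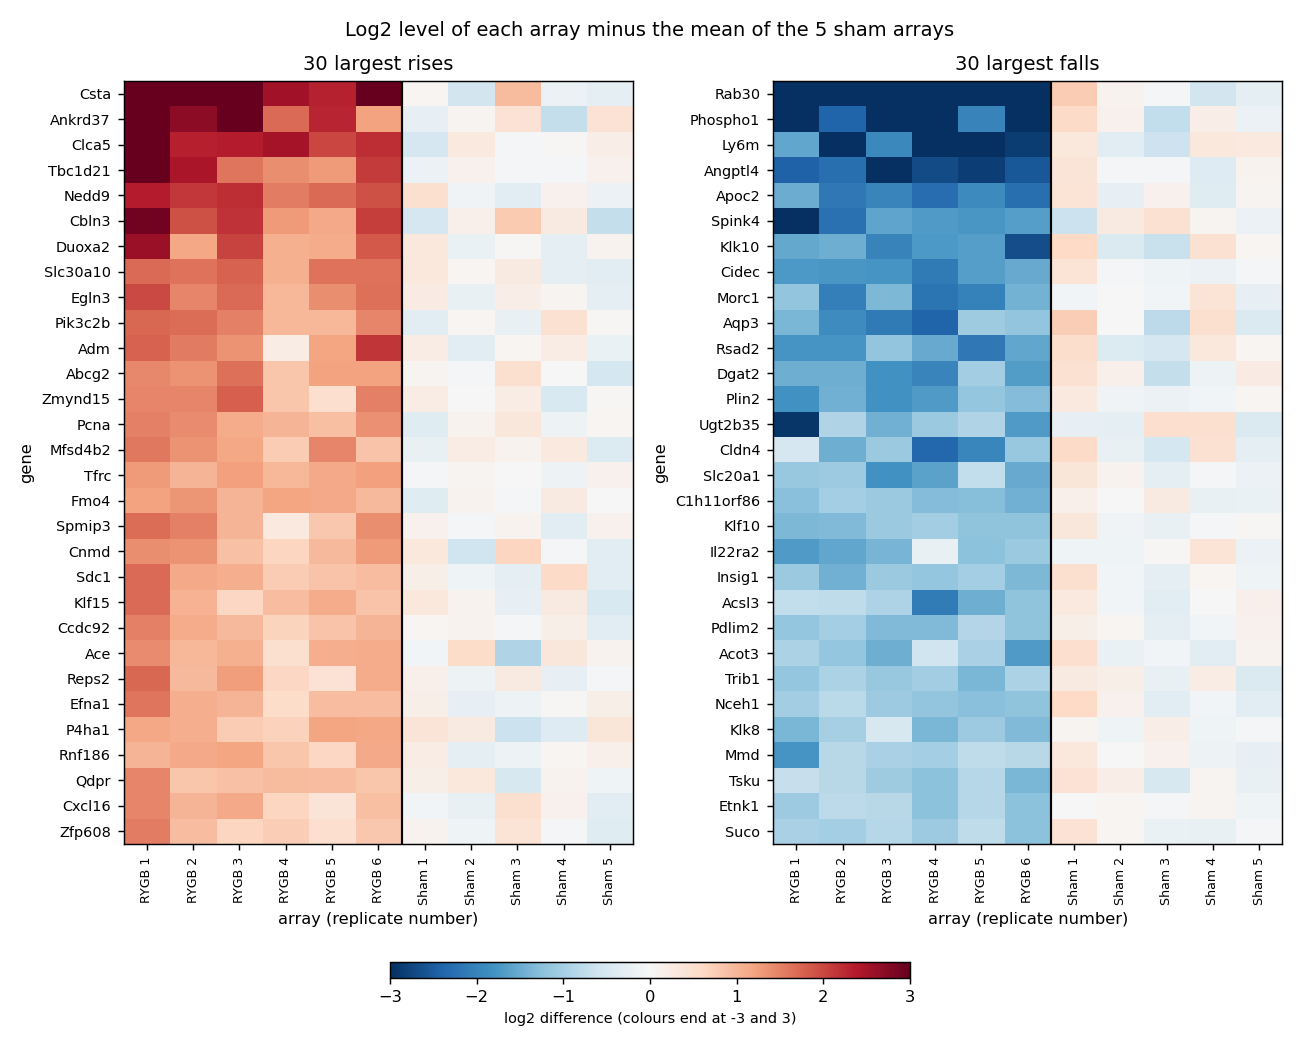
Colours give the log2 level of each array minus the mean of the 5 sham arrays, for the 30 largest rises (left) and falls (right) among the firm calls, with RYGB arrays left of sham arrays. The colour scale ends at -3 and 3. RYGB replicate 1 is the darkest column for many of the rises, and RYGB replicate 4 is close to the sham arrays for Adm and Il22ra2.

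Several genes of the hypoxia response rose. Of 16 measured members, 8 rose, 1 fell and 7 did not pass (56.2% called, against 2.64% of all genes). The median log2 fold change was 0.34, or 0.30 with the pancreas covariate. The members were chosen with earlier results of these data known, so the share is a description. The mean over the list was 6.75 to 7.28 in RYGB arrays and 6.41 to 6.60 in sham arrays, without overlap. Ankrd37, an ankyrin-repeat protein and a known HIF target, ranged from 4.43 to 6.93 after RYGB (median 5.72), against 2.98, 3.31, 3.67, 2.52 and 3.67 in sham, 5.53-fold higher (2.47 ± 0.37, adjusted p = 0.000112). Egln3, a prolyl hydroxylase that marks HIF for degradation, ranged from 7.39 to 8.38 (median 7.96), against 6.64, 6.17, 6.61, 6.49 and 6.11, 2.89-fold higher (1.53 ± 0.16, adjusted p = 2.85e-07). In both genes every RYGB array was above every sham array. Adm, which encodes the vasodilator peptide adrenomedullin, rose 2.58-fold (1.37 ± 0.24, adjusted p = 0.000723). Its RYGB replicate 4, at 4.80, was level with the highest sham arrays, and the other 5 lay between 5.75 and 6.71. P4ha1, a subunit of the collagen prolyl hydroxylase, rose 2.01-fold (1.01 ± 0.19). Ndrg1 (0.72 ± 0.14), the glycolytic enzyme Pgk1 (0.71 ± 0.12) and the histone demethylase Kdm3a (0.68 ± 0.12) rose by smaller amounts. Pgk1 has a related gene, Pgk1l1, also a firm call (0.54), and shared probes were not checked. Ero1a rose (0.34 ± 0.09) and Bhlhe40 fell (-0.49 ± 0.11), with adjusted p = 0.240 and 0.0533 under the pancreas covariate. The Ero1a call was also lost without RYGB replicate 1, 3 or 6 or without any single sham array other than replicate 3 (adjusted p up to 0.0990). The 7 members that did not pass, among them Slc2a1, Car9 and Bnip3, lay between -0.07 and 0.34.

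A form of the core that HIF proteins bind is ACGTG, so the promoters of the list were searched for it on both strands (CACGT on the other). The other form, GCGTG, was not searched and stands unmarked in both promoters printed below. A match here means ACGTG or CACGT alone. Sequences are from RefSeq, GRCr8, 250 bases before to 50 after the first listed start of each gene. Of the 7 firm calls of the list, Ankrd37 and P4ha1 held a match, Adm, Egln3 and Kdm3a held none in this window, and Ndrg1 and Pgk1 were not searched because the promoter table used here has no entry for them. Of the 7 members that were not called, 6 held a match (Bnip3, Car9, Ddit4, Mxi1, Pfkfb3 and Slc2a1), against 2 of the 5 firm calls searched. The promoters of the 2 genes with a match are printed 5′ to 3′ with each match in capitals, and the 4 matches of Ankrd37 include a CACGTG in which both strands match.
Ankrd37, chr16:53001257-53001556, plus strand: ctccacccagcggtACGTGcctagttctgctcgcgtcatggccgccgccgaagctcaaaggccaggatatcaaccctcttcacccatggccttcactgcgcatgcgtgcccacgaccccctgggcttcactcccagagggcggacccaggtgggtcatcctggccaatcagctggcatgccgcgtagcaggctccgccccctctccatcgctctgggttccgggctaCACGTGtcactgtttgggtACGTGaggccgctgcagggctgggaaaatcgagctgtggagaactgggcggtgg
P4ha1, chr20:27844796-27845095, plus strand: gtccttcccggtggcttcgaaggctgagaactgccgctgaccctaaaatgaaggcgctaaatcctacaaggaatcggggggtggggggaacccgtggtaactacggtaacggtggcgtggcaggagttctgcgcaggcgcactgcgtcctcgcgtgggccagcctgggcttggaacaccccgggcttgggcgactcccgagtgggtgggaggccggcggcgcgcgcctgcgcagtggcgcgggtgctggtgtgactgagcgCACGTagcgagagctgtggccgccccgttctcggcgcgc
The motif is common. It was in 2516 of the 11724 promoters of tested genes (21.5%), in 22 of 143 promoters of genes called higher (15.4%) and in 36 of 159 of those called lower (22.6%). For firm calls alone it was in 11 of 46 promoters of those that rose (23.9%), and in 10 of 40 of those that fell (25.0%). Bhlhe40, which was lower after RYGB, also had 4 matches. The letters TGACTCA or its complement TGAGTCA, the element of Fos and Jun proteins, were in 12 of 159 promoters of genes called lower (7.55%), in 1 of 143 of those called higher (0.699%) and in 487 of all 11724 (4.15%). These shares are descriptions without a test.

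Transport genes for metals had no list of their own and were picked by function, with the porphyrin exporter Abcg2 set beside them. Of the firm calls and markers given here, Slc25a28 was lower and the others were higher. Slc30a10, a manganese exporter, lay between 8.66 and 9.34 after RYGB (median 9.22), against 7.89, 7.64, 7.84, 7.29 and 7.25 in sham, 2.97-fold higher (1.57 ± 0.19, adjusted p = 4.26e-06) without overlap. Abcg2, an exporter of porphyrins and urate, rose 2.42-fold (1.28 ± 0.17), with RYGB arrays at 8.58 to 9.40 and sham arrays at 7.23 to 8.23. Tfrc, the transferrin receptor, lay at 8.98 to 9.28 after RYGB and 7.84 to 8.12 in sham, narrow ranges without overlap. Ferroportin, the iron exporter Slc40a1, rose 1.61-fold (0.69 ± 0.16), at 10.22 to 10.86 after RYGB and 9.56 to 10.01 in sham. Cybrd1, a reductase of luminal iron, was higher in every RYGB array (11.91 to 12.28) than in any sham array (10.13 to 11.80), but it was no longer called with the pancreas covariate (adjusted p = 0.107) or when sham replicate 2, 4 or 5 was left out (adjusted p up to 0.0918). Slc25a28, which carries iron into mitochondria, fell 1.84-fold (-0.88 ± 0.11, adjusted p = 9.44e-06). The solute carriers as a family did not lean one way. Of 243 measured, 5 rose and 5 fell (3 of the rises and 2 of the falls firm), and their median was -0.004. That is 4.12% called, against 2.64% of all genes. Beside the metal carriers, Slc6a6, the taurine transporter, rose 1.63-fold (0.70 ± 0.14), and Slc20a1, a phosphate transporter, fell 2.49-fold (-1.32 ± 0.15, adjusted p = 5.74e-07). Slc2a5, the fructose transporter, was lower (-1.36 ± 0.25), with RYGB arrays at 6.37 to 8.30 and sham arrays at 8.19 to 9.02, and lost its call without the 3 pancreas-rich RYGB arrays (adjusted p = 0.0703).

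The 30 largest falls included Angptl4, Apoc2, Plin2, Cidec and Dgat2, which act in lipid storage and lipoprotein handling. They were picked from the 30 by function, and no list of such genes was set. The lipoprotein genes Apoa4, Apob and Mttp, among the enterocyte markers, were not called. Apob lay at 10.28 to 10.92 after RYGB and 10.30 to 10.63 in sham. The desaturase Scd was called higher (3.56 to 5.09 after RYGB, 2.82 to 3.79 in sham) and is not a firm call. Angptl4, a secreted inhibitor of lipoprotein lipase and a PPAR target, ranged from 3.56 to 4.32 after RYGB (median 3.98), against 6.97, 6.53, 6.55, 6.21 and 6.70 in sham. The groups did not overlap, and the gene fell 6.20-fold (-2.63 ± 0.21). Apoc2, the cofactor of the same lipase, ranged from 7.98 to 8.78 (median 8.2), against 10.67, 10.02, 10.39, 9.90 and 10.35, 4.04-fold lower (-2.01 ± 0.20, adjusted p = 1.46e-07). Plin2, which coats lipid droplets, ranged from 8.39 to 9.05 (median 8.64), against 10.51, 10.11, 10.04, 10.12 and 10.27 in sham. In each of these genes the highest RYGB array was below the lowest sham array. Cidec, which enlarges lipid droplets by fusion, ranged from 6.96 to 7.56 (median 7.33), against 9.48, 9.01, 8.95, 8.89 and 9.02, 3.37-fold lower (-1.75 ± 0.14, adjusted p = 1.4e-09). Dgat2, which makes the last bond of triglycerides, fell 2.99-fold (-1.58 ± 0.17), with RYGB arrays at 7.41 to 8.36 and sham arrays at 8.67 to 9.85.

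Some enzymes of fatty acid activation and of membrane lipids fell too, while most members of their families did not pass. Of 43 acyl-CoA synthetases, thioesterases and binding proteins, 0 rose and 4 fell, 2 of them firm, with a median of -0.15. That is 9.30% called, against 2.64% of all genes. Acsl3, an acyl-CoA synthetase of lipid droplets, fell 2.29-fold (-1.20 ± 0.17) and Acot3, a peroxisomal thioesterase in the mouse, 2.20-fold (-1.14 ± 0.23). Of 30 genes of phospholipid synthesis and remodelling, 0 rose and 3 fell (10.0% called, 2 of them firm), but the median was 0.03. Phospho1, a phosphatase of phosphocholine and phosphoethanolamine, ranged from 3.72 to 5.37 after RYGB (median 4.26), against 7.95, 7.51, 6.64, 7.56 and 7.20 in sham, 7.60-fold lower (-2.93 ± 0.23, adjusted p = 1.36e-09). Etnk1, the ethanolamine kinase, fell 2.01-fold (-1.01 ± 0.11, adjusted p = 3.61e-07), with 7.14 to 7.59 after RYGB and 8.26 to 8.47 in sham. Nceh1, a cholesterol ester hydrolase, fell 2.14-fold (-1.10 ± 0.20), and Gpd1, which makes glycerol 3-phosphate, 1.66-fold (-0.73 ± 0.11). Among 26 genes of sphingolipid metabolism 2 rose and 0 fell (7.69% called, against 2.64% of all genes). Their median was 0.07, with 16 above and 10 below 0. The 1 firm call, Smpd2, a neutral sphingomyelinase, was 1.56-fold higher (0.64 ± 0.13).

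All 15 measured genes of sterol synthesis and its control lay below 0 after RYGB. Of these, 0 rose, 8 fell and 7 did not pass (53.3% called, against 2.64% of all genes), and the median was -0.58. The list was chosen with earlier results of these data known, so this share is a description. The list mean was 7.21 to 7.38 in RYGB arrays and 7.49 to 8.01 in sham arrays. Insig1, which holds SREBP in the endoplasmic reticulum and is itself an SREBP target, ranged from 7.62 to 8.05 (median 7.94), against 9.55, 8.98, 8.77, 9.12 and 8.94 in sham, 2.30-fold lower (-1.20 ± 0.17, adjusted p = 5.64e-05) without overlap. It was the 1 firm call of the list. The other 7 that fell, Fdft1, Fdps, Idi1, Insig2, Mvd, Nsdhl and Sqle, lost their call with the pancreas covariate (adjusted p from 0.141 for Fdft1 to 0.306 for Fdps), where the list median was -0.45. Leaving out sham replicate 4 alone ended the call of 5 of them, Fdft1, Fdps, Idi1, Nsdhl and Sqle (adjusted p from 0.0527 to 0.136). Fdps and Idi1 each lost it with 7 of the 11 arrays left out in turn, RYGB replicates 1, 2 and 3 among them, Sqle with all but sham replicate 5, and Insig2 when sham replicate 1 or 3 or the RYGB array of replicate 4 or 6 was left out. Srebf1, the factor that drives fatty acid synthesis, was also lower (-0.81 ± 0.18) and lost its call without the 3 pancreas-rich RYGB arrays (adjusted p = 0.0628).

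**Figure D4:**
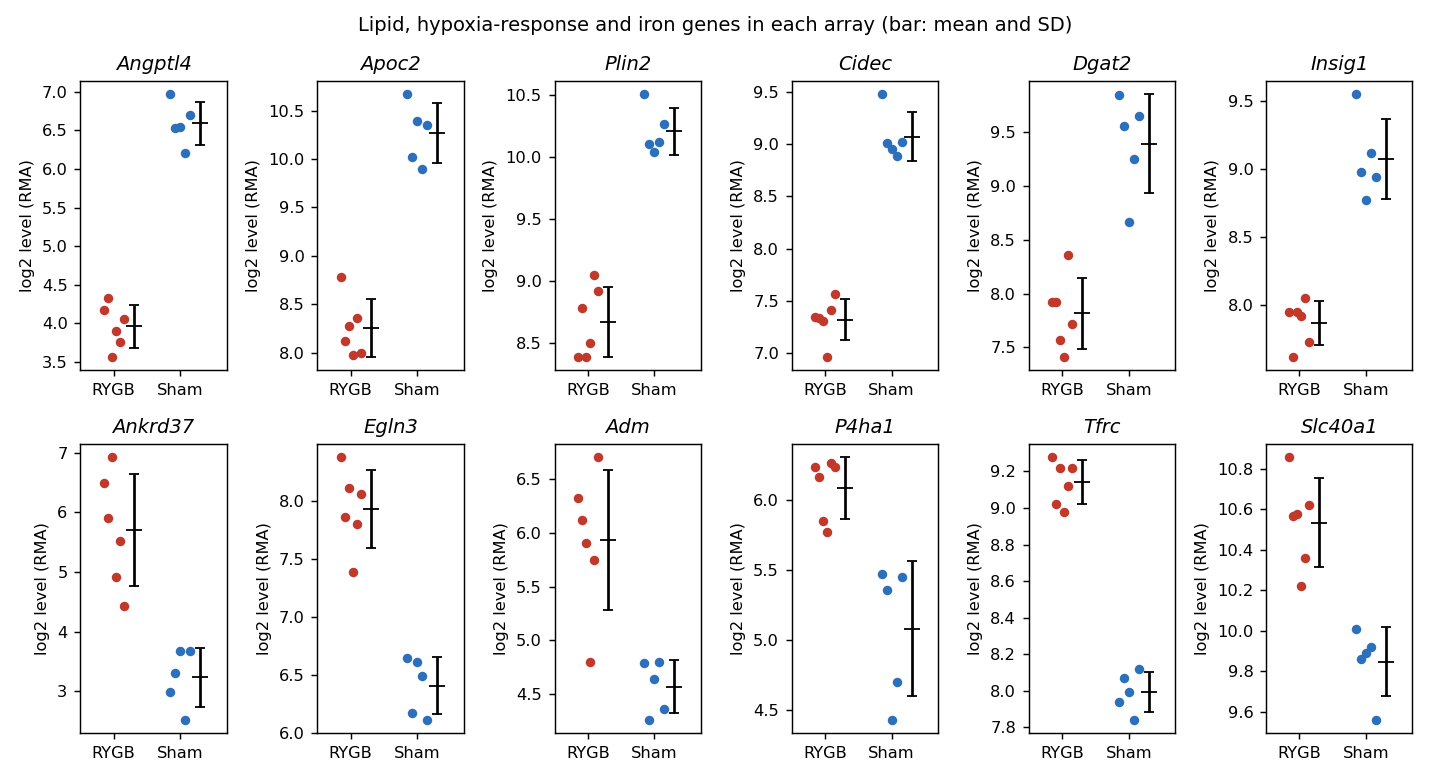
Points are arrays, RYGB left of sham, on the log2 RMA scale, with mean and SD beside them, for 6 lipid and sterol genes (upper row) and 4 hypoxia-response and 2 iron genes (lower row). The vertical axes differ in range and do not start at 0. Angptl4, Apoc2, Plin2, Cidec, Dgat2 and Insig1 are lower in all 6 RYGB arrays than in the 5 sham arrays, and of the lower row Adm alone has an RYGB array among the sham values.

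The largest fall was that of Rab30, a small GTPase of the Golgi. It ranged from 5.76 to 6.17 after RYGB (median 5.94), against 10.06, 9.40, 9.26, 8.75 and 9.0 in sham, 10.2-fold lower (-3.35 ± 0.37, adjusted p = 5.48e-07). All RYGB arrays lay below all sham arrays. Of 58 Rab GTPases and TBC proteins, 3 rose and 1 fell (6.90% called, against 2.64% of all genes), with a median of 0.06. Tbc1d21 and Rab30 were the firm calls. Ly6m, of the Ly6 family of surface proteins, was 6.62-fold lower (-2.73 ± 0.39), with RYGB arrays spread from 3.77 to 5.78 and sham arrays from 6.71 to 7.66.

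Further falls were spread over several functions. Spink4, a secreted protein of goblet cells, ranged from 7.62 to 9.15 after RYGB (median 9.0), against 10.09 to 11.18 in sham (median 10.82), 4.02-fold lower (-2.01 ± 0.25, adjusted p = 4.26e-06). It was the single gene called among 7 goblet cell markers, whose median was -0.02, and limma called 0 of 6 Paneth cell markers (2 at an unadjusted p under 0.05). Klk10 (-1.84 ± 0.24) and Klk8 (-1.10 ± 0.17), both kallikrein-related proteases, fell 3.59-fold and 2.14-fold. Aqp3, a channel for water and glycerol, fell 3.18-fold (-1.67 ± 0.26), with 5.04 to 6.39 after RYGB and 6.67 to 8.19 in sham, the 1 call among 22 carbonic anhydrases and aquaporins. Cldn4, a claudin of tight junctions, fell 2.68-fold (-1.42 ± 0.27), and RYGB replicate 1 (8.40) reached the lowest sham array (8.38). Rsad2, the interferon-induced viperin, fell 3.14-fold (-1.65 ± 0.27), and Il22ra2, a soluble decoy receptor of interleukin 22, 2.30-fold (-1.20 ± 0.21). Il22ra2 was the single call among 78 interleukins and their receptors. Ugt2b35, a glucuronosyltransferase, fell 2.82-fold (-1.50 ± 0.29), with RYGB replicate 1 lowest at 3.97.

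Most cell-cycle genes lay lower after RYGB, and nucleotide enzymes went both ways. Of 27 measured cell-cycle genes, 1 rose, 2 fell and 24 did not pass (11.1% called, against 2.64% of all genes). At an unadjusted limma p under 0.05 there were 18, 1 higher and 17 lower, against 2056 of all 14557 genes. Of the 27, 26 lay below 0, with a median of -0.33. The list means were 5.49 to 5.80 after RYGB and 5.81 to 6.19 in sham. The exception was Pcna, the sliding clamp of DNA polymerases, which ranged from 9.47 to 10.08 after RYGB (median 9.81), against 8.21, 8.68, 8.92, 8.43 and 8.63 in sham. All 6 RYGB arrays were above the sham arrays, a 2.33-fold rise (1.22 ± 0.13, adjusted p = 3.89e-07). Prc1, which bundles microtubules in the dividing cell, fell 1.67-fold (-0.74 ± 0.14). The thymidylate synthase Tyms was lower (-0.58 ± 0.13), with adjusted p = 0.0513 under the pancreas covariate. Ada, adenosine deaminase, fell 1.95-fold (-0.97 ± 0.12, adjusted p = 3.96e-06), with 9.75 to 10.50 after RYGB and 10.90 to 11.20 in sham. Pnp, the phosphorylase of the next step in purine breakdown, rose 1.43-fold (0.51 ± 0.11), and the other 27 measured nucleotide genes were not called.

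Among regulators, Klf10, a Krüppel-like repressor, ranged from 6.03 to 6.35 after RYGB (median 6.18), against 7.72, 7.29, 7.16, 7.35 and 7.42 in sham, 2.31-fold lower (-1.21 ± 0.13, adjusted p = 3.06e-07). Klf15, a factor of amino acid and glucose metabolism, rose 2.06-fold (1.04 ± 0.19). The 23 Krüppel-like and Sp factors thus split into 2 that rose and 2 that fell, and the 2 calls beside these, Klf11 and Sp5, lost theirs without the 3 pancreas-rich arrays (adjusted p = 0.0917) and with the covariate (adjusted p = 0.0649). Trib1, a pseudokinase that guides protein degradation, fell 2.15-fold (-1.10 ± 0.17). Txnip, which binds thioredoxin and is induced by glucose, fell 1.59-fold (-0.67 ± 0.10, adjusted p = 0.000151). Dnajb9, a chaperone of the endoplasmic reticulum, rose by 0.68 ± 0.12, Stim2, a calcium sensor of the same compartment, by 0.56 ± 0.12, and Gpr155, a lysosomal membrane protein, by 0.59 ± 0.10. Morc1 (-1.71), C1h11orf86 (-1.23), Pdlim2 (-1.15), Mmd (-1.02), Tsku (-1.01) and Suco (-0.99) complete the 30 largest falls, and Morc1 lay at 1.79 to 2.81 after RYGB, under the array medians.

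Several large families had no call in either direction by limma. These were 93 subunits of oxidative phosphorylation, 56 integrins and adhesion molecules, 47 Wnt and R-spondin genes, 46 cytosolic ribosomal proteins, 35 ATP-dependent ion pumps, 34 keratins, 33 complement and coagulation genes, 30 cyclins and their kinases, and 23 prostanoid genes. Their medians lay between -0.09 and 0.03, and at an unadjusted p under 0.05 the lists in this order had 8, 10, 5, 2, 4, 3, 3, 8 and 7 genes. Among all 14557 genes 2056 had such a p. For oxidative phosphorylation 70 of the 93 were below 0, with list means of 7.66 to 7.83 after RYGB and 7.76 to 8.01 in sham, and for the mitochondrial ribosome 50 of 58 were below 0, with 1 call. In all genes 50.7% were above 0. The brush border peptidases, disaccharidases and phosphatases had 3 rises and 0 falls among 13 (23.1% called, against 2.64% of all genes), of which Ace alone was a firm call. The 71 mucins, trefoil factors and mucin glycosyltransferases had 3 rises and 0 falls (4.23% called), none of them firm. The 208 zinc finger genes had 4 rises and 0 falls (1.92% called, 1 of them firm), and the 183 ubiquitin ligase genes 6 rises and 4 falls (5.46% called, 1 of them firm).

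Markers of other cells gave few calls. Limma called 0 markers of enteroendocrine cells (9 measured), T and natural killer cells (10), macrophages (5), mast cells (5), smooth muscle (4), B and plasma cells (4), liver (5) and pancreatic islets (6). At an unadjusted p under 0.05 there were 0, 2, 0, 0, 0, 1, 1 and 0, against 2056 of all 14557 genes. The islet markers without a call still had list means of 2.56 to 4.54 in RYGB arrays and 2.40 to 2.62 in sham arrays. Of the 6, 5 lay above 0 and 1 below, with a highest log2 fold change of 2.12. All 6 fibroblast markers and all 5 markers of enteric neurons and glia lay below 0, with medians of -0.28 and -0.36. Each of these 2 lists had 1 call, Lum (-0.59 ± 0.15) and Vip (-1.22 ± 0.24). Both calls were lost without the 3 pancreas-rich RYGB arrays, with adjusted p = 0.157 for Lum and 0.0515 for Vip. That of Lum was also lost without RYGB replicate 1, 3 or 6 or without any single sham array other than replicate 5 (adjusted p up to 0.104). Cidec was the 1 call among 5 adipose markers, and the other 4 lay above 0 and were not called. The part of pancreatic or stromal RNA in these results was not tested beyond the refits.

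The 26 microRNA genes with a row of their own included 2 calls, both lower after RYGB and neither a firm call. These rows measure transcripts of the gene, not the mature microRNA. The mature sequences, from RefSeq GRCr8, are printed with the seed (bases 2 to 8) in capitals. The seed of miR-215 is that of miR-192-5p, whose gene has no row here.
rno-miR-215: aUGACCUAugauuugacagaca
rno-miR-192-5p: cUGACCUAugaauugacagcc
rno-miR-3587: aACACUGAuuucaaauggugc
Mir215, a microRNA gene of intestinal epithelium, ranged from 2.12 to 5.66 after RYGB (median 4.51), against 5.31, 6.47, 7.20, 5.68 and 6.38 in sham. The highest RYGB array was above the lowest sham array. The log2 fold change of Mir215 was -1.91 ± 0.47 (adjusted p = 0.0185), and adjusted p = 0.113 with the RYGB and sham arrays alone. Without sham replicate 2 or 3 it was not called either (adjusted p up to 0.0744). Mir3587 was -1.11 ± 0.25 (adjusted p = 0.00942, and 0.0736 in the same fit), near the array medians. The other 24 lay between -0.40 and 0.28. Of the 26 genes, 22 had RYGB and sham means both under the lowest array median of 2.85, so little can be read from their fold changes.

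The bypass effect was set against that of VSG, in which food still passes the duodenum. Against its own sham VSG had 26 calls (0.179%), 15 of which were also called after RYGB. That is 3.90% of the RYGB calls and 57.7% of the VSG calls, and 14 of the 15 had the same direction. The exception, Abhd5, an activator of triglyceride breakdown that was singled out after its values were seen, was -0.40 after RYGB and 0.50 after VSG. Its RYGB call was lost with 9 of the 11 arrays left out in turn. The difference of the effects was called for 57 genes (0.392%), 13 with a higher and 44 with a lower value for RYGB. Among the 113 firm calls the difference passed for 36 and not for 77. They were chosen for their RYGB effect, which is part of the difference, so these counts are a description.

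Some genes of lipid handling differed between the operations. Angptl4 changed by -2.63 after RYGB and -0.23 after VSG (adjusted p of the difference 2.11e-05), Plin2 by -1.54 and 0.10 (1.24e-06), Cidec by -1.75 and 0.18 (1.24e-06), and Apoc2 by -2.01 and 0.12 (5.09e-05). The VSG values of these 4 genes were not called. For Acot3 (difference -0.86, adjusted p = 0.365) and Smpd2 (0.52, adjusted p = 0.307) the difference did not pass. Rab30 changed by -3.35 and 0.26 (adjusted p of the difference 0.000146), Spink4 by -2.01 and 0.01 (0.00208), Insig1 by -1.20 and 0.05 (0.00692), Csta by 3.63 and 0.18 (0.000569) and Pcna by 1.22 and 0.13 (0.00145). Of the transport genes for metals and Abcg2, Slc25a28 differed (-0.88 and -0.17, adjusted p of the difference 0.0303), and for the others given here the difference did not pass. Slc30a10 rose by 1.57 after RYGB and 1.01 after VSG (adjusted p of the difference 0.573), Tfrc by 1.15 and 0.63 (0.238) and Abcg2 by 1.28 and 0.82 (0.610), each called in both. Cybrd1, at 1.17 and 1.63 (0.839), was called in both, and Slc40a1, at 0.69 and 0.57 (0.950), was not called after VSG. Ndrg1, at 0.72 and 0.74, and Cxcl16, at 0.92 and 0.80, were also called in both, as was the fall of Klk10 (-1.84 and -1.23). In the hypoxia list Egln3 differed (1.53 and 0.38, adjusted p of the difference 0.00712), while the difference for Ankrd37 (2.47 and 0.80) did not pass (0.207). Of the 57 firm calls that rose, 52 had a VSG value above 0, and of the 56 that fell, 30 had a VSG value below 0. The share of all genes with a VSG value above 0 was not counted, so these counts are a description. Single arrays were also measured from the mean of the RYGB sham arrays, not from VSG's own sham. On this baseline the median share of the RYGB difference was 0.02 to 0.29 in VSG arrays. It was -0.08 to 0.02 in VSG sham arrays and -0.04 to 0.09 in pair-fed sham arrays.

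**Figure D5:**
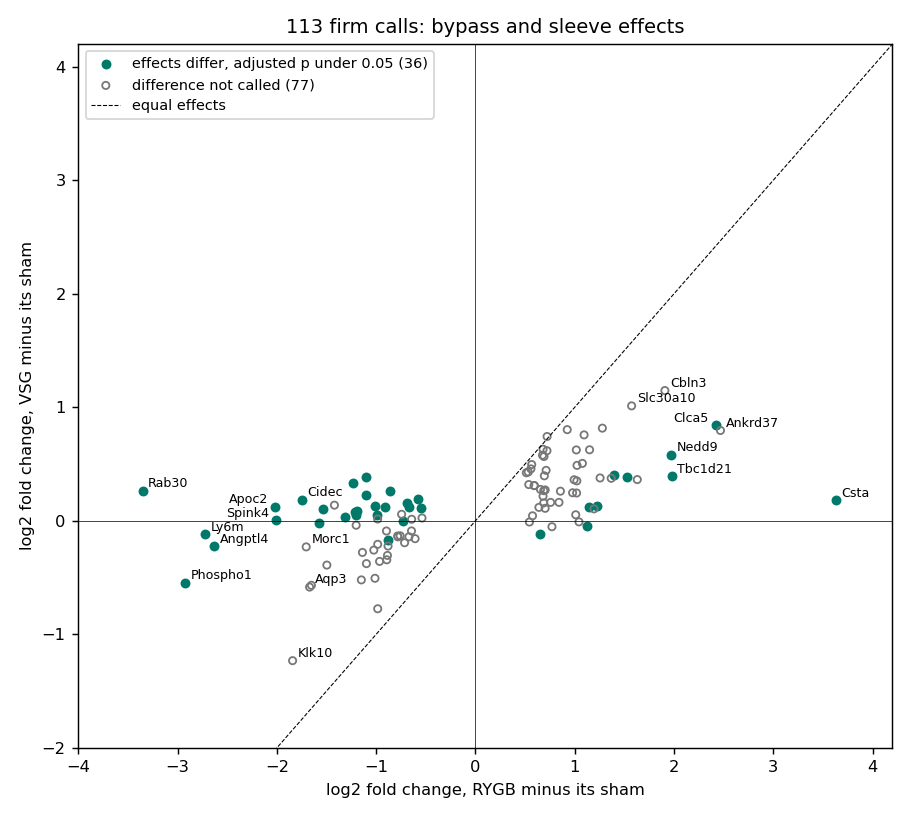
Each point is 1 of the 113 firm calls, with the log2 fold change of RYGB minus its sham on the horizontal axis and that of VSG minus its sham on the vertical axis. Filled points are the 36 genes whose 2 effects differed at an adjusted p under 0.05, open points the other 77, and the dashed line marks equal effects. Rab30, Angptl4, Apoc2 and Csta lie near 0 on the VSG axis, while Slc30a10 and Cbln3 lie nearer the line.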

How the data were processed

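RNA of rat duodenum was extracted with RNeasy, amplified with the Nugen Ovation PicoSL WTA system and biotin-labelled, per the labels' protocols. The deposited log2 values, 1 per probe set and array, were made by the authors with RMA in Affymetrix Expression Console 1.3.0.187, per the submitters' processing notes. Chip definition, genome build and filters: not given in the sources used here. Array medians of the 11 arrays were 2.85 to 2.91, and correlations between any pair of them 0.956 to 0.975, so none was a copy. Arrays carry no read depth, and their number limits the precision.

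Of 36685 rows, 14824 had 1 symbol, 829 several and 21032 none in the platform annotation. Symbols were updated through Entrez numbers (GRCr8, 154 not found). A gene is its row with the highest mean over 29 arrays (234 genes had over 1 row), and no intensity filter was used. A limma model (3.58.1, R 4.3.3) of 5 group means used all 29 arrays, with two-sided p-values adjusted by Benjamini-Hochberg over 14557 genes. The labels call the samples biological replicates. Exact permutation tests served the pancreas mean (SciPy 1.17.1).

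Named are the 30 largest rises and 30 largest falls among firm calls and up to 5 firm calls of each of 83 gene lists (19 of cell type markers), 74 genes in all. Unnamed loci and receptor or immunoglobulin segments were passed over. Called list members that are not firm are counted, and a setting that ends the call is given for those that are named. The members, lists and rule were chosen with earlier results of these data known. On simulated data of the 14557 genes, 14 of 50 genes changed by 0.5 (log2) were called, 46 of 50 at 1, 49 of 50 at 1.5 and 50 of 50 at 2, with 7 false calls. Promoters were matched by gene number for 11724 genes, and microRNAs by symbol for 25 of 26.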

Additional observations from a re-analysis of the deposited data

Results flagged for a closer look

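Single arrays stood apart from their group in 7 of the 150 groups of values examined, where chance alone gives about 1 in 20. Slc30a10 was 8.66 in RYGB replicate 4 (others 9.22 to 9.34), Qdpr 9.30 in RYGB replicate 1 (others 8.67 to 8.80) and Mmd 6.49 in RYGB replicate 1 (others 7.24 to 7.51). Cidec was 9.48 in sham replicate 1 (others 8.89 to 9.02), Slc6a6 7.29 in sham replicate 1 (others 7.62 to 7.73) and Stim2 7.18 in sham replicate 4 (others 6.70 to 6.74). Without the array concerned the log2 fold changes were 1.67 for Slc30a10, 0.88 for Qdpr, -0.88 for Mmd, -1.65 for Cidec, 0.63 for Slc6a6 and 0.65 for Stim2. The exocrine pancreas mean was 5.88 in sham replicate 1 (others 2.71 to 3.30), and the group difference without it was 4.07.

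The RYGB effect differed from the VSG effect, each against its own sham, in 29 of the 74 named genes by limma's test of the difference. The difference, RYGB effect minus VSG effect on the log2 scale, was positive for 9. It was 3.45 for Csta, 1.58 for Clca5, 1.58 for Tbc1d21, 1.39 for Nedd9, 1.17 for Spmip3, 1.15 for Egln3, 1.09 for Pcna, 1.02 for Fmo4 and 0.99 for Pik3c2b. Among the lipid genes it was -2.41 for Angptl4, -2.38 for Phospho1, -2.14 for Apoc2, -1.94 for Cidec, -1.64 for Plin2, -1.56 for Dgat2, -1.33 for Nceh1, -1.29 for Acsl3, -1.25 for Insig1, -1.14 for Etnk1 and -0.73 for Gpd1. For the rest it was -3.61 for Rab30, -2.60 for Ly6m, -2.01 for Spink4, -1.57 for C1h11orf86, -1.49 for Trib1, -1.35 for Slc20a1, -1.29 for Klf10, -1.04 for Suco and -0.71 for Slc25a28.

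Some rows without a single gene symbol were also called. With all 36685 rows tested, limma called 409, of which 135 are not among the rows with a single symbol. Rows with several symbols and rows with none were not counted apart. Together they are most of the 36685 rows but a minority of the calls, so they were called less often than named rows.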

How the results depend on the processing

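Against 385 calls, limma called 192 genes with the RYGB and sham arrays fitted alone, 210 with the exocrine pancreas covariate, 221 without the 3 RYGB arrays richest in pancreas (126 higher and 95 lower) and 284 to 447 with single arrays left out. It called 496 without the lowest 33.3% of genes by mean, 409 over all rows, 384 with rows averaged, 457 with a trended and robust prior, 327 after centring, 404 after a further quantile normalization and 414 with array weights. Fewer samples enter the smaller fits, and no called gene changed sign in the 14 refits. Replicate numbers did not pair the arrays: same-numbered RYGB and sham arrays correlated from -0.09 to 0.071, and 2 of 5 sham arrays matched their own number best. A replicate block over the 10 arrays with shared numbers gave 79 calls, and the same arrays without the block, an alternative chosen after seeing the data, gave 106, with 66 shared. Of the 74 named genes, 21 were not called under that block and 12 on the same arrays without it. None lost its call in the other settings (73 of the 74 were tested without the dimmest genes), and none reversed. The count of genes whose effect differed from VSG, 57, ran from 45 to 83. The pancreas difference ran from 3.12 to 4.30 with single arrays left out (exact p from 0.0159 to 0.0667). Over the tested genes alone the array medians were higher than over all rows, at 3.99 to 4.13 in the 11 arrays. For 26 genes called lower the RYGB mean lay under the highest such median of the 29 arrays. For 30 called higher the sham mean did so. The sizes of those among them that lie near or under the all-row medians of 2.85 to 2.91 are inexact.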

Other observations

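Of the 113 firm calls, 39 fell outside the naming rule, and those given here were chosen after their values were seen. Tlr5, the receptor of bacterial flagellin, lay between 4.41 and 5.81 after RYGB and between 5.85 and 6.00 in sham, 1.98-fold lower (-0.98 ± 0.15, adjusted p = 0.000151). The immediate early factor Fos lay between 5.38 and 6.57 after RYGB and between 6.50 and 7.5 in sham, with overlap at 1 array of each group (-0.99 ± 0.19, adjusted p = 0.00202). Mfsd2a, a transporter of lysophosphatidylcholine, fell 1.88-fold (-0.91 ± 0.15), and its value after VSG was 0.12 (adjusted p of the difference 0.0103). Gmnn, the replication licensing inhibitor geminin, fell 1.84-fold (-0.88 ± 0.16).

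Peroxisomal genes among the 39 went both ways. The membrane protein Pxmp4 (-0.78 ± 0.15) and the lyase Hacl1 (-0.61 ± 0.14) fell, while Amacr, which acts on branched-chain fatty acids, rose 1.57-fold (0.65 ± 0.11). Pxmp4, Hacl1 and Amacr are not among the 26 measured genes of the peroxisome list, of which 1 was called, with a median of -0.07. Cndp1, a dipeptidase, rose by 0.68 after RYGB and 0.63 after VSG, and Hyal2, a hyaluronidase, by 0.57 and 0.50, each called in both.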
